A study of Mus musculus with 22 samples.

Results

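Metalloproteases are zinc enzymes that cut proteins of the extracellular matrix and of the cell surface, and the 65 genes described here are the matrix metalloproteases (Mmp), the membrane-bound Adam proteases, the secreted Adamts proteases and the tissue inhibitors of metalloproteases (Timp). Members were all symbols of these 4 families with at least 1 count in each of the 2 count tables of the study. Of 73 matching symbols 65 qualified, of 32544 symbols listed in all: 23 of 23 Mmp genes, 19 of 27 Adam genes, 19 of 19 Adamts genes and 4 of 4 Timp genes. Adam2, Adam7, Adam18, Adam24 and Adam25 had no counts in either table, and Adam20, Adam29 and Adam39 had between 2 and 5 counts in the early lesion table alone.

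RNA was sequenced in bulk from 22 libraries of primary mouse cells kept for 7 days on gelled Matrigel, in a medium with horse serum, hydrocortisone, insulin and EGF. Alveolar macrophages, the resident macrophages of the lung airspace, came from wildtype FVB mice and carried no transgene. Mammary cells came from MMTV-HER2 mice, in which the mouse mammary tumour virus promoter drives the receptor HER2 in mammary epithelium, and were taken either at the early lesion stage (EL cells) or from primary tumors (PT cells). In the early lesion experiment there were 2 libraries of macrophages co-cultured with EL cells, 2 of macrophages cultured alone, 3 of EL cells co-cultured with macrophages and 3 of EL cells cultured alone. In the primary tumor experiment there were 3 libraries each of macrophages with PT cells, macrophages alone, PT cells with macrophages and PT cells alone. Co-cultured cells were separated by FACS before RNA extraction. The labels call the replicates biological without naming separate animals, so that p-values measure the spread between these libraries. Stage of the mammary cells, partner of the macrophages and experiment changed together and cannot be told apart.

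Matrix metalloproteases are made as inactive precursors whose propeptide has to be cut away, and membrane-type members such as Mmp14 do so for Mmp2. Adam10 and Adam17 release the outer parts of membrane proteins, among them TNF, ligands of the EGF receptor family, Notch and E-cadherin. Adamts proteases cut large proteoglycans such as versican or trim procollagens. Timp proteins bind the active site of these enzymes, and Timp3, which is held in the matrix, also inhibits Adam17 and several Adamts proteases. In lung, macrophages are a known source of the elastase Mmp12, whereas the collagenase Mmp8 is best known from neutrophils.

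Library totals were 19.7 to 43.7 M counts (M, 1000000). The 6 macrophage libraries of the primary tumor experiment stood apart, with 65.69 to 78.63% of counts in 13 mitochondrially encoded genes against 2.86 to 3.53% in the other 16 libraries. The gene Grip2 took a further 1.85 to 12.9% of their counts, against 0.0165 to 7.38% in the other 16 libraries. Outside the mitochondrial genes and Grip2 they had 4.65 to 6.03 M counts. Levels below are CPM (counts scaled to a library total of 1000000) after 1 TMM scaling of all 22 libraries. Levels of macrophages in the 2 experiments are therefore not set against each other, except in the correlations over group means. The 15 macrophage markers summed to 47004 to 52298 CPM in macrophages of the early lesion experiment and 19949 to 25309 CPM in those of the primary tumor experiment, against 96.9 to 289 CPM in mammary cells, and the 12 epithelial markers summed to 4266 to 5422 CPM in mammary cells. All 12 epithelial markers averaged more in co-cultured macrophages than in those alone, with either partner. As a share of its level in the partner EL cells, the median epithelial marker stood at 0.784% in macrophages with EL cells and 0.174% in those alone, and as a share of that in PT cells at 1.25% in macrophages with PT cells and 0.386% in those alone. The summed list gave 5.25% with EL cells (2.38% alone) and 3.71% with PT cells (0.82% alone), mostly from Krt19 and Cdh1, which macrophages alone already held at 75.2 and 31.1 CPM in the early lesion experiment and 19.3 and 9.92 CPM in the other. The median macrophage marker stood at 0.0588% of its level in the partner macrophages in EL cells with macrophages and 0.026% in EL cells alone, and at 0.0493% in PT cells with macrophages and 0.0124% in PT cells alone. The sum of that list in mammary cells was mostly Plet1, at 109 and 96.7 CPM in EL cells with macrophages and alone, and 257 and 219 CPM in PT cells with macrophages and alone. Fibroblast markers summed to 623 to 1990 CPM in EL libraries, the highest being replicate 1 of EL cells from co-culture, and to 191 to 336 CPM in PT libraries. In bulk RNA, fewer cells of a type and less RNA per cell cannot be told apart.

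Of the 65 members, 42 reached 1 CPM in the mean of at least 1 of the 8 groups, and 23 did not, Mmp7, Mmp20, Mmp21, Adam28, Adamts13 and Timp4 among them. Timp4 had 0 to 5 counts in every library. Summed over the family, Mmp transcripts made up 622 ± 0.53 CPM in macrophages with EL cells and 486 ± 83.3 CPM in macrophages of that experiment alone (SD, n = 2 each), and 330 ± 35 CPM in macrophages with PT cells and 179 ± 29.8 CPM in macrophages of that experiment alone (SD, n = 3 each). Timp transcripts summed to 55.6 and 39.7 CPM in macrophages with EL cells and in those cultured alone, but to 313 ± 39.2 CPM in EL cells with macrophages and 278 ± 19.3 CPM in EL cells alone (SD, n = 3 each). The inhibitors were thus mostly transcripts of the mammary cells.

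Levels of different genes can be ordered only per length of transcript. Per kilobase of exon, Mmp8 held the first place among members in macrophages from both co-cultures, with 90.8 CPM per kb with EL cells and 98.5 CPM per kb with PT cells. In macrophages cultured alone the first place went to Mmp12 in the early lesion experiment (31.7 CPM per kb) and to Mmp19 in the primary tumor experiment (20.7 CPM per kb). In EL cells Timp1 came first, with 106 CPM per kb in co-culture and 112 CPM per kb alone. PT cells had the sheddase Adam10 first, at 32.5 CPM per kb in co-culture and 38.3 CPM per kb alone, followed by Timp1 at 23.8 CPM per kb in co-culture and 30.1 CPM per kb alone.

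**Figure D1:**
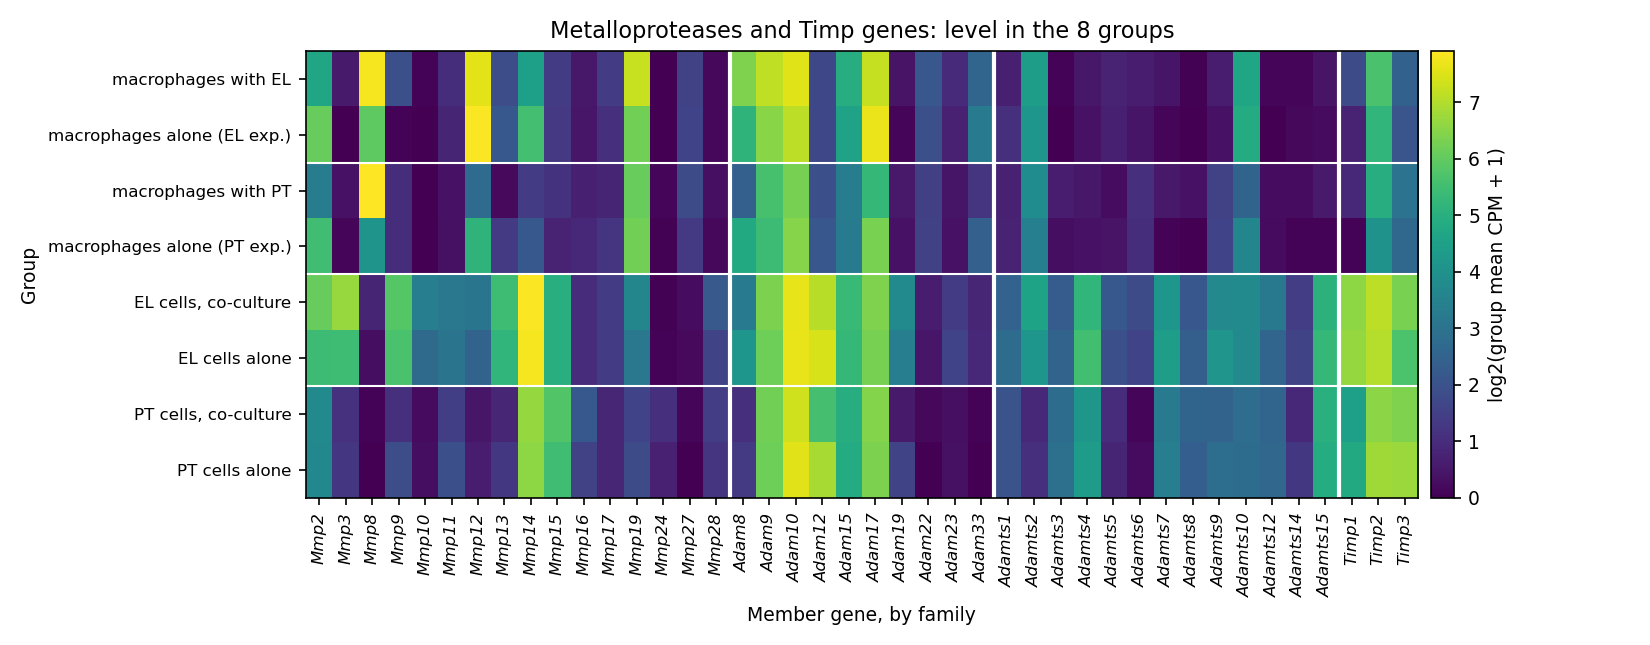
Mean level of the 42 members that reached 1 CPM in at least 1 group, as log2 of CPM + 1, by family (columns) and group (rows). Macrophage groups hold Mmp8, Mmp12 and Mmp19 at high level, and mammary groups hold Timp1, Timp2, Timp3, Adam12 and Mmp14.

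Set against mammary cells cultured alone, macrophages cultured alone differed in most members, and all genes did so too. Against EL cells, 12 members were higher and 35 lower in macrophages among 52 tested (edgeR quasi-likelihood test, Benjamini-Hochberg adjusted p under 0.05), where 37% of all 15696 genes tested were higher and 40.7% lower. Against PT cells, 10 members were higher and 24 lower among 40 tested, where 36.7% of 13575 genes were higher and 42.3% lower. Mmp8, Mmp12, Mmp19, Mmp2, Mmp27, Adam8, Adam22, Adam33 and Adamts10 were higher in macrophages in both comparisons. In PT cells alone, Mmp8, Mmp27, Adam22 and Adam33 had 0 or 1 count per library. Timp1 and Adamts8 likewise had 0 or 1 count per library in macrophages alone of that experiment. In macrophages alone of the early lesion experiment Mmp1a, Mmp1b, Mmp3, Mmp7, Mmp10 and Adamts8 had 0 or 1 count per library. Such members passed the filter on low counts through the other cell type alone. The calls that rest on such a filter, against PT or EL cells, and the counts they enter carry no weight of their own. Mmp12 averaged 229 ± 62.7 CPM (SD, n = 2) in macrophages and 4.72 ± 0.56 CPM (SD, n = 3) in EL cells, and Mmp8 61.3 ± 17.2 CPM in macrophages and 0.234 ± 0.119 CPM in EL cells. In the primary tumor experiment Mmp8 averaged 16.1 ± 5.36 CPM in macrophages (SD, n = 3), and no count fell on it in the 3 libraries of PT cells, which with a floor of 3 counts over the group means at least 647-fold higher in macrophages. Adam33, likewise at 0 counts in PT cells alone, was at least 174-fold higher in macrophages.

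The members lower in macrophages included Timp1, Timp2, Timp3, Mmp14, Adam10, Adam12, Adam15 and Adam19 in both comparisons. With 1 to 4 counts per library in macrophages alone, Adam19 passed the filter through the mammary cells alone, and its calls carry no weight. Timp3 averaged 3.20 ± 2.03 CPM in macrophages of the early lesion experiment and 49.9 ± 7.91 CPM in EL cells, and 5.27 ± 1.81 CPM in macrophages of the primary tumor experiment and 104 ± 11.3 CPM in PT cells. Timp1 averaged 0.726 ± 0.318 CPM in macrophages against 99.5 ± 12.7 CPM in EL cells, and 0.0502 CPM in macrophages against 26.7 ± 3.64 CPM in PT cells. Of the Adamts family, 13 of 16 tested were lower in macrophages than in EL cells and 9 of 12 lower than in PT cells. Adamts3, Adamts7, Adamts8, Adamts12, Adamts14, Adamts15, Adamts16 and Adamts17 had at most 8 counts per library in macrophages alone of either experiment. Where tested, these passed the filter on low counts through the mammary cells alone, so both family counts carry no weight of their own. Adamts8, which had no count in macrophages cultured alone, was at least 113-fold lower than in EL cells and at least 31.5-fold lower than in PT cells. Adamts10, a protease that binds fibrillin microfibrils, was the 1 Adamts gene higher in macrophages in both comparisons (11.5 ± 3.31 CPM against 5.93 ± 0.339 CPM in PT cells), and Adamts2, which trims procollagen, was higher against PT cells (9.65 ± 0.156 CPM against 1.07 ± 0.25 CPM).

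A pair of macrophage genes, Mmp8 and Mmp12, lie 214 kb apart between their starts in a cluster of 10 Mmp genes on mouse chromosome 9, at chr9:7272514-7699585 of mm10 (GENCODE vM21), in the order Mmp13, Mmp12, Mmp1b, Mmp3, Mmp1a, Mmp10, Mmp8, Mmp27, Mmp20 and Mmp7. All but Mmp1b are on the plus strand, and exons of Mmp12 and Mmp1b overlap on opposite strands over 10.84% of the exon length of Mmp1b. The windows from 250 bases before to 50 bases after the RefSeq start sites (GRCm38.p6) of Mmp8, of both starts of Mmp12 and of Mmp3 are printed. Mmp8 and Mmp12 changed differently in co-cultured macrophages. Mmp3 was called there from 0 and 1 counts in macrophages alone of the early lesion experiment, a call without weight of its own. All 4 windows are on the plus strand. Capitals mark the letters of 3 motifs: TGANTCA, which AP-1 factors bind, and GAGGAA, a core bound by PU.1 and other ETS factors, each searched on both strands (on the other strand GAGGAA reads TTCCTC), and TATAAA, the TATA box, searched on the gene's strand.
Mmp8, chr9:7558179-7558478: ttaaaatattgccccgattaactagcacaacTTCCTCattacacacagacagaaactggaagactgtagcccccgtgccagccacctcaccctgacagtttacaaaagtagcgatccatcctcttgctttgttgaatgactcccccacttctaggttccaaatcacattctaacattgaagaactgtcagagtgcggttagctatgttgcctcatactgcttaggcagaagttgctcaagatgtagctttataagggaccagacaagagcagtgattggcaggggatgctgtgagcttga
Mmp12 first start, chr9:7344147-7344446: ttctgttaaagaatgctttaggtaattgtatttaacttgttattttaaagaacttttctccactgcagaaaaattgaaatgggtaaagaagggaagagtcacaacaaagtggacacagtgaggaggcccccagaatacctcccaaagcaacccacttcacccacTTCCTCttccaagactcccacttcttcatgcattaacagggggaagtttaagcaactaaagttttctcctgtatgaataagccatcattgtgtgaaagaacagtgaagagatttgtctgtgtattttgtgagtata
Mmp12 second start, chr9:7347124-7347423: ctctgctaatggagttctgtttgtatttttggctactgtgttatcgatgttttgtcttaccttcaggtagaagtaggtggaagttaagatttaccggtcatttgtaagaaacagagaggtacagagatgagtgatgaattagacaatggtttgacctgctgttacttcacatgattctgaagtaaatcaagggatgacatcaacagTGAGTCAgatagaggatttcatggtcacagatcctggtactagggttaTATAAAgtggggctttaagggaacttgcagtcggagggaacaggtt
Mmp3, chr9:7445572-7445871: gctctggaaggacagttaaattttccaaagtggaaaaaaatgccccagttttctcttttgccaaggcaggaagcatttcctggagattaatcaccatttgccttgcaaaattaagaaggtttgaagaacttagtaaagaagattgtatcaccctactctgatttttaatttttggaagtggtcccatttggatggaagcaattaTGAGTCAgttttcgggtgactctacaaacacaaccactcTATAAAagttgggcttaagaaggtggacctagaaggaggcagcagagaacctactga

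The letters of the AP-1 motif and of the TATA box were each present in the windows of 8 of the 10 cluster genes, Mmp8 and Mmp27 being the exceptions for both. Of 31 other member genes with a window, 1 held the AP-1 letters and 2 the TATA letters, and of all 32851 windows of this length 7.81% held the AP-1 letters and 8.32% the TATA letters. In Mmp3 the AP-1 letters began at position -46 from the start site and the TATA letters at -7, and at the second start of Mmp12 they began at -44 and 5. The PU.1 letters were in the windows of Mmp8 (from position -219), Mmp12 (first start, from -86), Mmp10 and Mmp7, in those of 5 of the 31 other member genes, and in 28.3% of all windows. Windows were matched for 41 of the 65 members. A match of letters is a description of the window and shows no binding.

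In macrophages cultured with PT cells the collagenase Mmp8 rose, and the elastase Mmp12, the gelatinase Mmp2 and the sheddases Adam8 and Adam17 fell. Of 19 members tested, 3 were higher and 6 lower than in macrophages alone, where 15.8% of all 11121 genes tested were higher and 14.8% lower; 10 of the 65 members had no count in co-culture and 14 none alone. The median log2 change of the tested members was -0.07, against 0.00072 for all genes.

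Mmp8 stood at 208, 260 and 249 CPM in the 3 libraries of macrophages with PT cells and at 21.4, 16.3 and 10.7 CPM in the 3 libraries of macrophages alone. Every co-culture library was far above every library of macrophages alone. The log2 change was 3.96 ± 0.23 (SE; adjusted p = 4.01e-06 by the edgeR quasi-likelihood test, as for the other members here). In the PT cells sorted from the same co-cultures Mmp8 averaged 0.0509 CPM. Mmp8 is a known neutrophil product, and of the 11 neutrophil markers S100a9, Ly6g, Camp, Ngp, Elane and Retnlg had no count in either group of macrophages of this experiment. The summed level of the list was 61.4 to 79.9 CPM with PT cells and 58.9 to 70.6 CPM alone, nearly all from S100a8 and Cxcr2. The chemokine receptor Cxcr2 averaged 33.9 CPM with PT cells and 3.46 CPM alone, whereas S100a8 averaged 38.7 CPM with PT cells and 59 CPM alone, and Csf3r 0.209 CPM with PT cells and 0.365 CPM alone. Their part in the Mmp8 level was not tested.

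Mmp12 had 7.03, 4.61 and 5.84 CPM in macrophages with PT cells, against 47.6, 28.8 and 26.3 CPM in macrophages alone. The groups did not overlap, and the log2 change was -2.48 ± 0.27 (adjusted p = 5.43e-05). Adam8, a sheddase of leukocytes, had 3.3, 4.11 and 5.53 CPM with PT cells, against 30.9, 25.9 and 24.3 CPM alone. All co-culture libraries were below all others, with a log2 change of -2.58 ± 0.21 (adjusted p = 1.2e-06). Mmp2, gelatinase A, had 6.89, 11.8 and 9.06 CPM with PT cells, against 46.1, 49.3 and 36.5 CPM alone. This was a log2 change of -2.19 ± 0.20 without overlap (adjusted p = 2.99e-06).

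Adam17, the enzyme that releases TNF, stood at 31.9, 41.8 and 38.2 CPM with PT cells and at 99.1, 71.8 and 64.3 CPM alone, all co-culture libraries being lower (log2 change -1.01 ± 0.18, adjusted p = 0.00168). Adamts10 had 3.16, 5.1 and 6.45 CPM with PT cells, against 9.33, 9.81 and 15.3 CPM alone (log2 change -1.17 ± 0.28, adjusted p = 0.00605). Both fell without overlap between the groups. Timp2, an inhibitor that also takes part in the activation of Mmp2, had 23.4, 32.1 and 33.5 CPM with PT cells, against 19, 13 and 14.5 CPM alone. It was higher in every co-culture library, by 1.00 ± 0.19 on the log2 scale (adjusted p = 0.00137); its level in the partner PT cells was 3.08 times that of the co-cultured macrophages, and the part of partner RNA in the rise was not tested.

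The calls of Adamts2 and Adam33 were less secure. Adamts2 had 11.5, 15.5 and 13.5 CPM with PT cells, against 9.79, 9.69 and 9.48 CPM alone (log2 change 0.54 ± 0.18, adjusted p = 0.0369), and passed the threshold in 4 of 12 alternative settings, with adjusted p between 0.0238 and 0.148. Adam33 had 0.143, 2.14 and 1.69 CPM with PT cells, against 3.01, 3.57 and 6.4 CPM alone (log2 change -1.67 ± 0.58, adjusted p = 0.0472), and passed in 7 of 12, with adjusted p between 0.000653 and 0.153. The other 7 called members passed in all 12.

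Members that did not pass in macrophages with PT cells included Mmp14, at 2.3, 1.81 and 0.614 CPM with PT cells and 3.46, 4.72 and 2.49 CPM alone (log2 change -1.10 ± 0.46, adjusted p = 0.0851). Mmp19 was at 60.1, 66.8 and 72.5 CPM with PT cells and at 80.1, 71.3 and 67.7 CPM alone, with groups that overlapped and a log2 change of -0.07 ± 0.11. Timp3 was at 10.2, 7.74 and 3.38 CPM with PT cells and 6.47, 3.19 and 6.16 CPM alone, and Adam12 at 1.29, 2.63 and 4.45 CPM with PT cells and 3.91, 3.31 and 2.96 CPM alone; both overlapped. Mmp9 was too low to test, with 6, 8 and 6 counts with PT cells and 13, 3 and 7 counts alone, and so was Timp1, with 6, 0 and 11 counts with PT cells and 1, 0 and 0 counts alone.

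**Figure D2:**
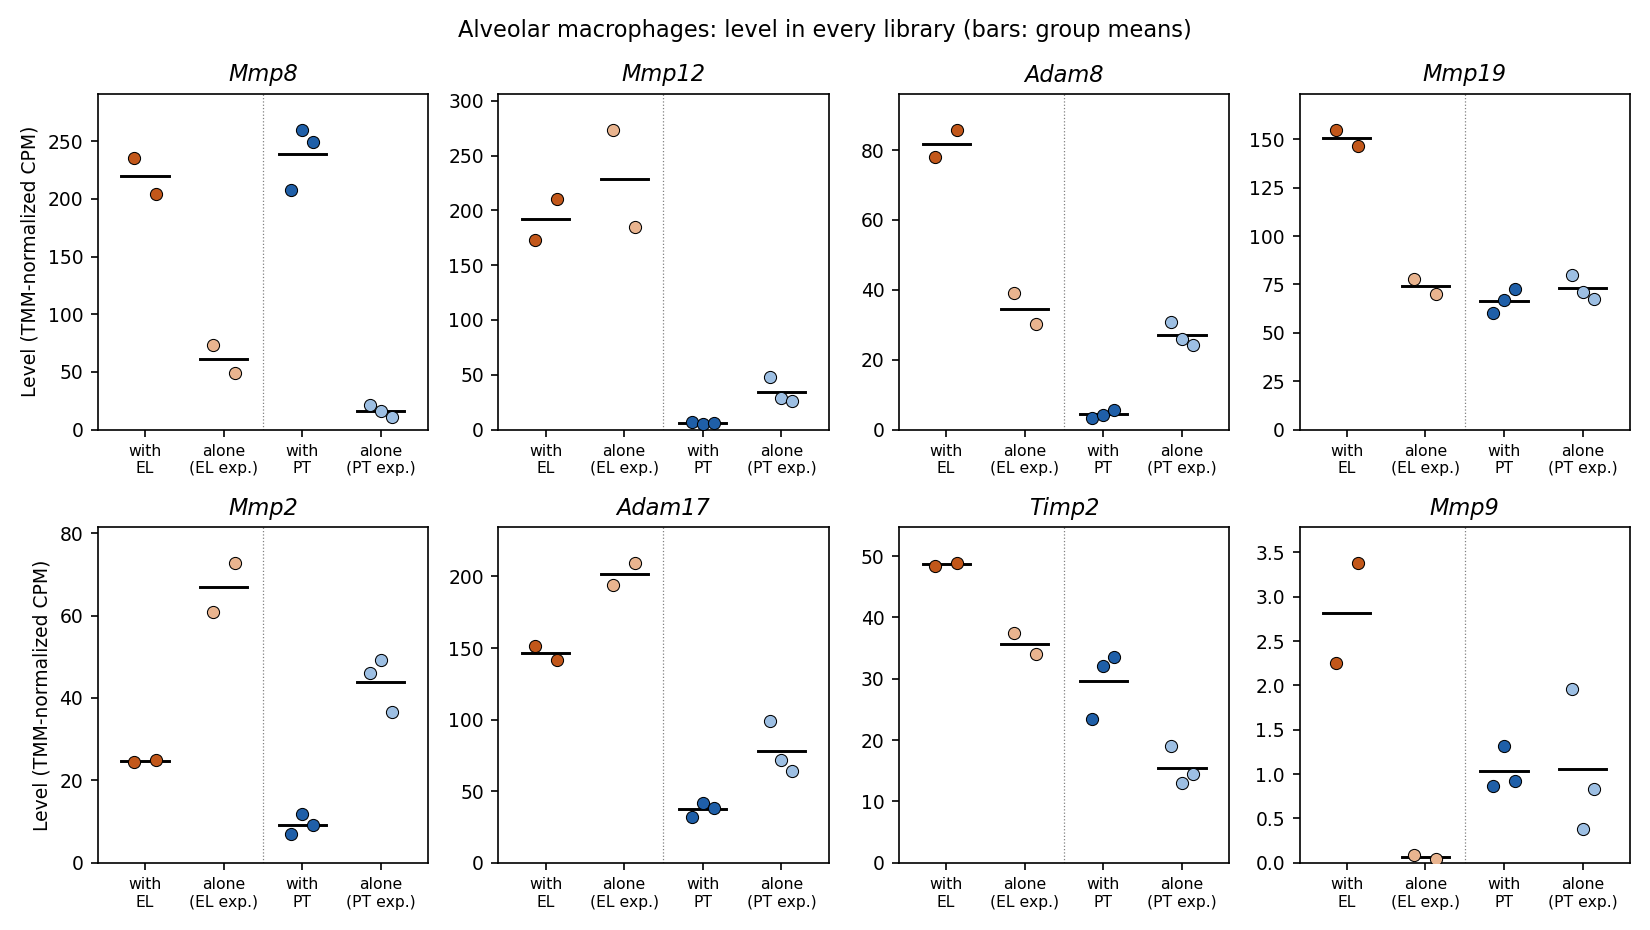
Level in CPM (linear axes, 1 point per library, bars for group means) of Mmp8, Mmp12, Adam8, Mmp19, Mmp2, Adam17, Timp2 and Mmp9 in macrophages with EL cells, macrophages alone in that experiment, macrophages with PT cells and macrophages alone in that experiment. Mmp8 lies at 205 and 236 CPM with EL cells against 49.1 and 73.4 CPM alone in that experiment, and at 208 to 260 CPM with PT cells against 10.7 to 21.4 CPM alone in the other.

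In macrophages cultured with EL cells more members were higher than lower. Of 39 tested, 10 were higher and 4 lower than in macrophages alone, where 9.11% of all 14032 genes were higher and 9.19% lower, and the median log2 change was 0.42 for the tested members and 0.0019 for all genes. By family the higher members were 4 Mmp, 4 Adam and 2 Timp genes, and the lower ones 2 Mmp and 2 Adam genes; of 10 Adamts genes tested edgeR called 0 (2 higher and 2 lower at an unadjusted p under 0.05), and DESeq2 called 0. Because each group had 2 libraries, leaving out 1 library left a single one whose spread was taken from the other group. Fitting all 4 groups of the experiment together ended the calls of Adam8 (adjusted p = 0.183), Mmp2 (0.0621), Adam33 (0.0972), Mmp3 (0.411), Mmp9 (0.0871) and Timp1 (0.0951).

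Mmp19, which cuts basement membrane proteins, had 155 and 147 CPM in macrophages with EL cells, against 77.7 and 70.3 CPM in macrophages alone. Both co-culture libraries were above both others, with a log2 change of 1.02 ± 0.07 (adjusted p = 3.34e-06). Whether counting used the strand is not stated, and 22.33% of the exon length of Mmp19 is shared with Tmem198b on the opposite strand. Adam8 had 78 and 85.8 CPM with EL cells, against 39 and 30.2 CPM alone (log2 change 1.24 ± 0.12, adjusted p = 0.000667). Mmp8 had 236 and 205 CPM with EL cells, against 73.4 and 49.1 CPM alone, without overlap. Its log2 change was 1.84 ± 0.26 (adjusted p = 0.039), which no longer passed without a filter on low counts (adjusted p = 0.067) or without either co-culture library (0.209 and 0.0718). The neutrophil list summed to 55.3 to 59.7 CPM with EL cells and 40.8 to 42.9 CPM alone. Cxcr2 averaged 36.3 CPM with EL cells and 14.7 CPM alone, and S100a8 19.4 CPM with EL cells and 26.1 CPM alone. The rest of the list averaged at most 0.979 CPM (Csf3r) with EL cells and 0.845 CPM (Csf3r) alone; of these, Retnlg had no count in either group, Ly6g had 1 count with EL cells and none alone, and S100a9, Camp, Ngp, Ltf, Elane and Mpo had counts in both.

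The widely expressed sheddases Adam9, Adam10 and Adam15 also rose. Adam9 had 149 and 131 CPM with EL cells, against 86.9 and 93.2 CPM alone (log2 change 0.63 ± 0.07, adjusted p = 0.000142). Adam10 had 196 and 172 CPM with EL cells, against 129 and 146 CPM alone (0.42 ± 0.08, adjusted p = 0.00446), and Adam15 had 30.8 and 28.4 CPM with EL cells, against 21.5 and 23.4 CPM alone (0.39 ± 0.08, adjusted p = 0.00602). Timp2 had 48.4 and 48.8 CPM with EL cells, against 37.4 and 34 CPM alone (0.44 ± 0.07, adjusted p = 0.00157). In each of these 4 genes both co-culture libraries were above both others, and their calls passed in all 10 alternative settings.

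Mmp9, Mmp3 and Timp1 were called higher from low levels, and each was far more abundant in the partner cells. Mmp9, gelatinase B, had 2.25 and 3.38 CPM with EL cells, against 0.0891 and 0.0435 CPM alone (log2 change 5.41 ± 0.47, adjusted p = 1.32e-05). Mmp3, a stromelysin, had 16 and 27 counts with EL cells, against 0 and 1 counts alone, a ratio of CPM of 37.5 with a 95% counting interval of 6.38 to 1514. Timp1 had 3.03 and 1.94 CPM with EL cells, against 0.951 and 0.501 CPM alone (1.80 ± 0.36, adjusted p = 0.00541). In the co-cultured macrophages these levels were 5.08% (Mmp9), 0.469% (Mmp3) and 2.64% (Timp1) of those in the EL cells of the same cultures. The median epithelial marker stood at 0.784% there and the 12 markers ranged from 0.635 to 30.6%. The highest were Krt19 (30.6%), Cdh1 (19.9%) and Esr1 (5.73%), which stood at 17.1, 7.8 and 3.01% in macrophages alone. The remaining markers were at most at 1.03% (Epcam). The part of partner RNA in these rises was not tested. Mmp9 and Mmp3 passed the filter on low counts through the co-cultured libraries alone, so their calls and the count they enter carry no weight of their own. Leaving out members that were at least 5 times higher in the partner cells left 7 higher and 3 lower.

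Among the members that fell, Mmp2 had 24.5 and 25 CPM in macrophages with EL cells, against 61 and 72.7 CPM alone (log2 change -1.44 ± 0.09, adjusted p = 1.2e-06). Mmp14, the membrane-type protease that activates Mmp2, had 20.9 and 21.1 CPM with EL cells, against 47.6 and 42.7 CPM alone (-1.11 ± 0.08, adjusted p = 4.09e-06), although the partner cells held 11 times more of it. For both genes each co-culture library was below each library of macrophages alone. Adam17 had 151 and 141 CPM with EL cells, against 194 and 209 CPM alone (-0.47 ± 0.07, adjusted p = 0.000539), and Adam33 had 4.58 and 5.41 CPM with EL cells, against 8.59 and 8.92 CPM alone (-0.82 ± 0.13, adjusted p = 0.000862). Mmp12 did not pass, at 173 and 210 CPM with EL cells and 273 and 185 CPM alone (-0.26 ± 0.28), and neither did Timp3, at 4.14 and 4.72 CPM with EL cells and 4.63 and 1.76 CPM alone, nor Adam12, at 2.38 and 2.15 CPM with EL cells and 2.58 and 1.96 CPM alone; all 3 overlapped.

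**Figure D3:**
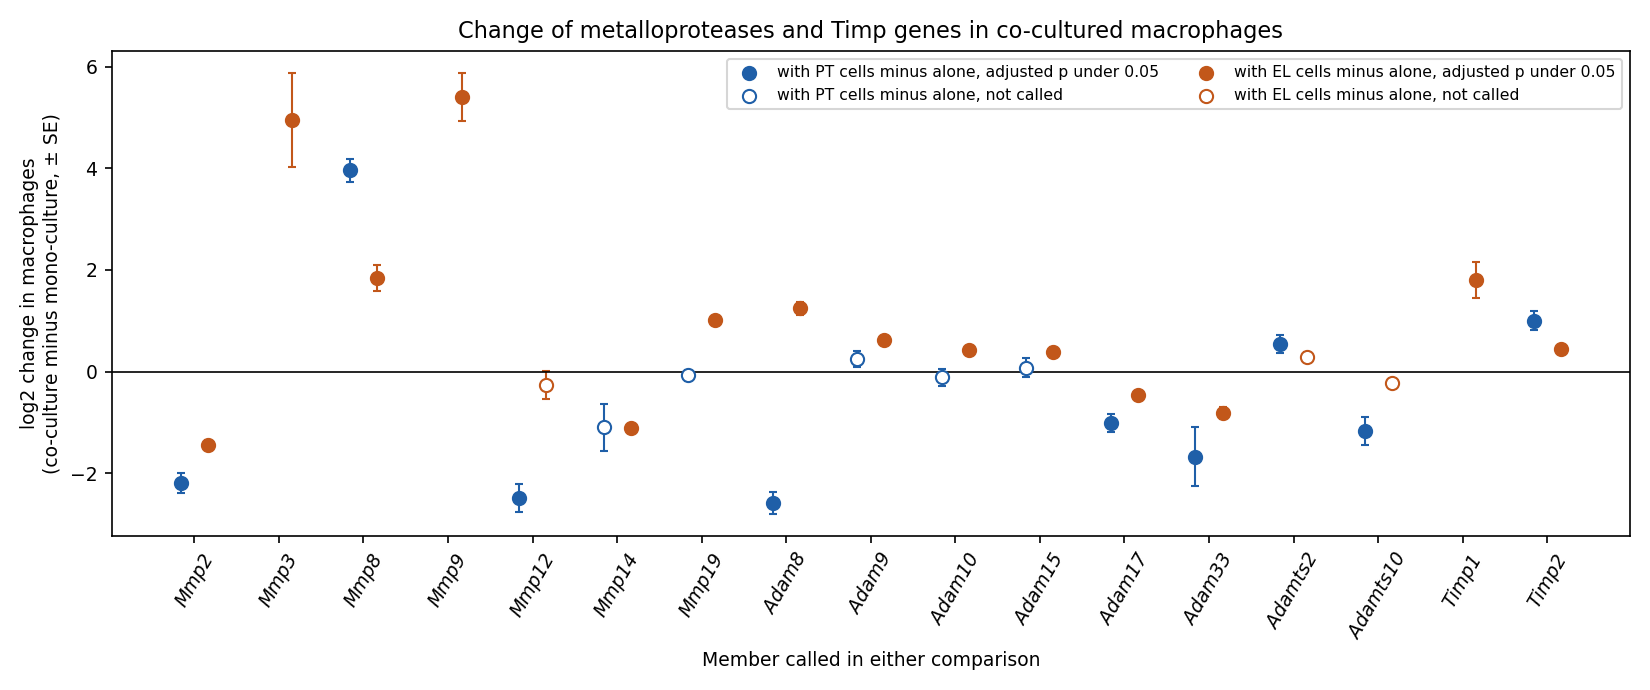
Log2 change in co-culture relative to macrophages alone, with its SE, for members called in at least 1 of the macrophage comparisons, with EL cells and with PT cells. Filled points passed an adjusted p of 0.05 and open points did not; Mmp8, Timp2, Mmp2 and Adam17 lie on the same side of 0 with both partners, and Adam8 on opposite sides.

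Whether the macrophage response differed between the partners was tested as the interaction of experiment and culture, that is the log2 change with PT cells minus that with EL cells. Of 36 members tested 1 was higher and 5 were lower, where 5.7% of all 13727 genes were higher and 5.25% lower. Adam8 differed most clearly, rising with EL cells and falling with PT cells, by -3.84 ± 0.25 on the log2 scale (adjusted p = 8.26e-07). Mmp8 rose more with PT cells, the difference being 2.11 ± 0.35 (adjusted p = 0.00541). Mmp19 (-1.11 ± 0.16, adjusted p = 0.000439) and Mmp12 (-2.23 ± 0.44, adjusted p = 0.0148) were lower. These differences of Adam8, Mmp8, Mmp19 and Mmp12 passed in all 15 alternative settings. Mmp9, counted among the 5, entered this test only through macrophages with EL cells, with 107 and 148 counts there and 2 to 13 counts in every other macrophage library, so its difference is not read as one of response. Adamts10 (-0.98 ± 0.30, adjusted p = 0.0486) passed in 7 of 15, and with 1 library left out in 2 of 10, with adjusted p up to 0.152. Mmp2 did not pass (-0.77 ± 0.24, adjusted p = 0.0511), nor did Timp2 (0.55 ± 0.22, adjusted p = 0.134), Adam17 (-0.56 ± 0.23, adjusted p = 0.154), Timp1, Timp3 or Adam12.

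Within the chromosome 9 cluster the responses in macrophages were thus mixed. Mmp8 rose with both partners, Mmp12 fell with PT cells and was not called with EL cells, and Mmp27, at 1.43 to 3.53 CPM with PT cells against 1.18 to 1.96 CPM alone, and at 1.96 and 1.98 CPM with EL cells against 2.02 and 2.05 CPM alone, passed in neither comparison. Mmp13 had 2.82 and 2.56 CPM with EL cells and 4.78 and 2.33 CPM alone, and 0.287, 0 and 0.154 CPM with PT cells and 2.56, 1.15 and 0.829 CPM alone. Mmp13 overlapped between the groups with EL cells and was too low to test with PT cells. Mmp1a and Mmp1b, paralogs of the collagenase gene, had no count in any macrophage library.

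**Figure D4:**
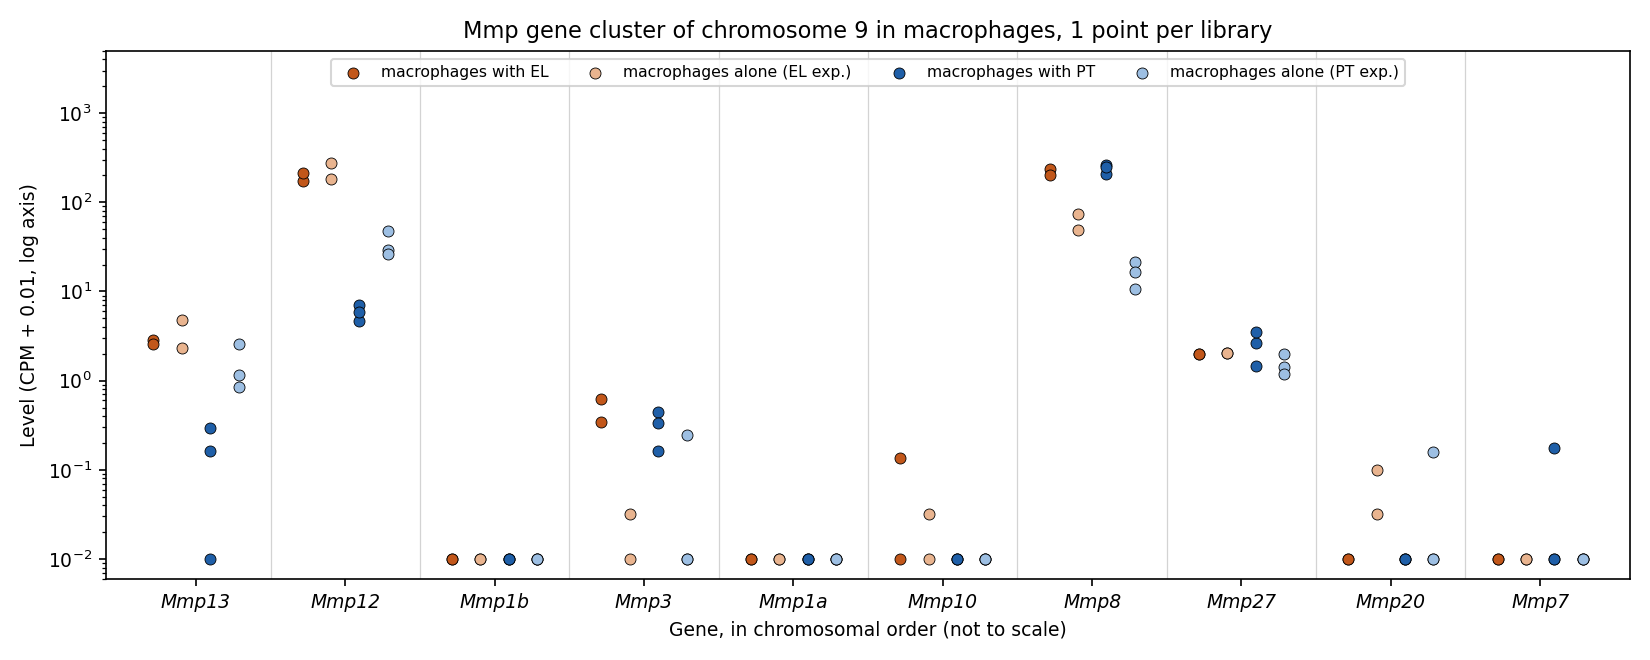
Level (CPM + 0.01, log axis, 1 point per library) of the 10 Mmp genes of the chromosome 9 cluster, in chromosomal order, in the 4 macrophage groups. Mmp8 is higher in the co-culture libraries of both experiments, Mmp12 is lower with PT cells, and points at 0.01 are libraries without a count.

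In PT cells the sheddase genes Adam19 and Adam12 were lower with macrophages. Of 37 members tested 0 were higher and 2 were lower in PT cells with macrophages than in PT cells alone, where 0.659% of all 13506 genes were higher and 1.01% lower. At an unadjusted p under 0.05, 1 member was higher and 10 were lower, beside 1270 and 1417 of all 13506 genes. DESeq2 called 0 members higher and 5 lower, beside 358 and 423 of all genes. Adam19, a sheddase of neuregulins, had 0.529, 0.547 and 0.423 CPM with macrophages, against 1.49, 2.51 and 2.21 CPM alone. It was lower in all 3 co-culture libraries, by -2.04 ± 0.28 on the log2 scale (adjusted p = 0.0209). Adam12, a sheddase often raised in breast tumours, had 44.9, 49 and 46.7 CPM with macrophages, against 86.1, 124 and 135 CPM alone, again without overlap (-1.29 ± 0.17, adjusted p = 0.0276). Each of these calls was lost when replicate 2 of PT cells alone or any 1 library of PT cells with macrophages was left out, with adjusted p up to 0.119 for Adam19 and 0.147 for Adam12.

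Libraries of PT cells with the same replicate number deviated together, and with the replicate number as a block 2 members were higher and 10 lower, where 10.6% of all genes were higher and 10.4% lower. Adam19 (-2.00 ± 0.26, adjusted p = 3.72e-05) and Adam12 (-1.26 ± 0.11, adjusted p = 0.00207) were again lower. With the block 3 inhibitors were lower: Timp3 (-0.34 ± 0.05, adjusted p = 0.000215), Timp1 (-0.33 ± 0.06, adjusted p = 0.00114) and Timp2 (-0.23 ± 0.05, adjusted p = 0.0033). The same held for Adam10 (-0.23 ± 0.05), Mmp11 (-0.70 ± 0.18), Mmp13 (-0.84 ± 0.25), Adamts9 (-0.39 ± 0.11) and Adamts14 (-0.82 ± 0.28), whereas the membrane-type genes Mmp15 (0.32 ± 0.06, adjusted p = 0.000625) and Mmp16 (0.92 ± 0.18, adjusted p = 0.0013) were higher.

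By library, Timp3 stood at 80.6, 88 and 75.7 CPM in PT cells with macrophages and at 91.9, 114 and 105 CPM in PT cells alone; all co-culture libraries were lower (adjusted p = 0.111 without the block). Timp1 had 20, 20 and 23.3 CPM with macrophages and 25.4, 23.9 and 30.8 CPM alone, also without overlap (adjusted p = 0.158). Timp2 had 111, 86.5 and 76.1 CPM with macrophages and 135, 103 and 85.1 CPM alone, where the groups overlapped and each co-culture library was below the library alone of the same number. Mmp9 had 1.39, 1.19 and 0.761 CPM with macrophages and 1.41, 2.48 and 4.1 CPM alone, and Adam8 0.793, 0.869 and 1.58 CPM with macrophages and 0.794, 1.68 and 2.09 CPM alone; neither passed with or without the block. Mmp8, too low to test, had 6 counts in all in PT cells with macrophages and none in PT cells alone.

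EL cells showed no member past the threshold: of 50 tested, 0 were higher and 0 lower in EL cells with macrophages, where 0.369% of all 14891 genes were higher and 0.141% lower. At an unadjusted p under 0.05, 9 members were higher and 3 lower, beside 1155 and 1058 of all 14891 genes. DESeq2 called 5 members higher (Timp3, Adamts12, Mmp28, Adam9 and Mmp10) and 2 lower (Adamts4 and Adamts7), beside 291 and 211 of all genes. Replicate 1 of EL cells with macrophages stood apart: without it the calls over all genes went up to 1612, against 76 with it, and 5 members were called higher and 4 lower. Those were Adam9, Timp3, Mmp10, Mmp28 and Adamts12 on the higher side and Adamts1, Adamts4, Adamts7 and Adam8 on the lower side. In that library Mmp3 stood at 168 CPM, Mmp9 at 99.4 CPM, Mmp13 at 69.5 CPM and Mmp2 at 97.9 CPM, each the highest of the 6 EL libraries, as was its fibroblast marker sum of 1990 CPM; the part of fibroblasts in these levels was not tested.

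Timp3 came closest in EL cells, with 83.9, 77.4 and 76.6 CPM in EL cells with macrophages and 58.2, 49.1 and 42.4 CPM in EL cells alone. Every co-culture library was above every library of EL cells alone, with a log2 difference of 0.70 ± 0.10 (adjusted p = 0.0527), and 5 of 12 alternative settings passed. The exons of Timp3 share 21.28% of their length with Syn3 on the opposite strand. Timp2 had 141, 137 and 140 CPM with macrophages and 131, 133 and 123 CPM alone (0.14 ± 0.04, adjusted p = 0.204), and Timp1 132, 68.3 and 82 CPM with macrophages and 111, 86.2 and 101 CPM alone, which overlapped.

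Adam12 had 176, 107 and 112 CPM in EL cells with macrophages and 201, 151 and 156 CPM in EL cells alone, with overlapping groups (-0.34 ± 0.22, adjusted p = 0.523). Adam8 had 15.6, 4.55 and 4.81 CPM with macrophages and 22.7, 13.3 and 14.4 CPM alone, and overlapped through replicate 1 of the co-culture. Mmp9 had 99.4, 24.2 and 42.7 CPM with macrophages and 49.7, 42.7 and 55 CPM alone, and its sign turned with the library left out. Mmp8 had 1.06, 0.473 and 0.744 CPM with macrophages and 0.151, 0.37 and 0.182 CPM alone (1.69 ± 0.45, adjusted p = 0.171); its level with macrophages was 0.345% of that in the co-cultured macrophages, where the median macrophage marker stood at 0.0588%.

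**Figure D5:**
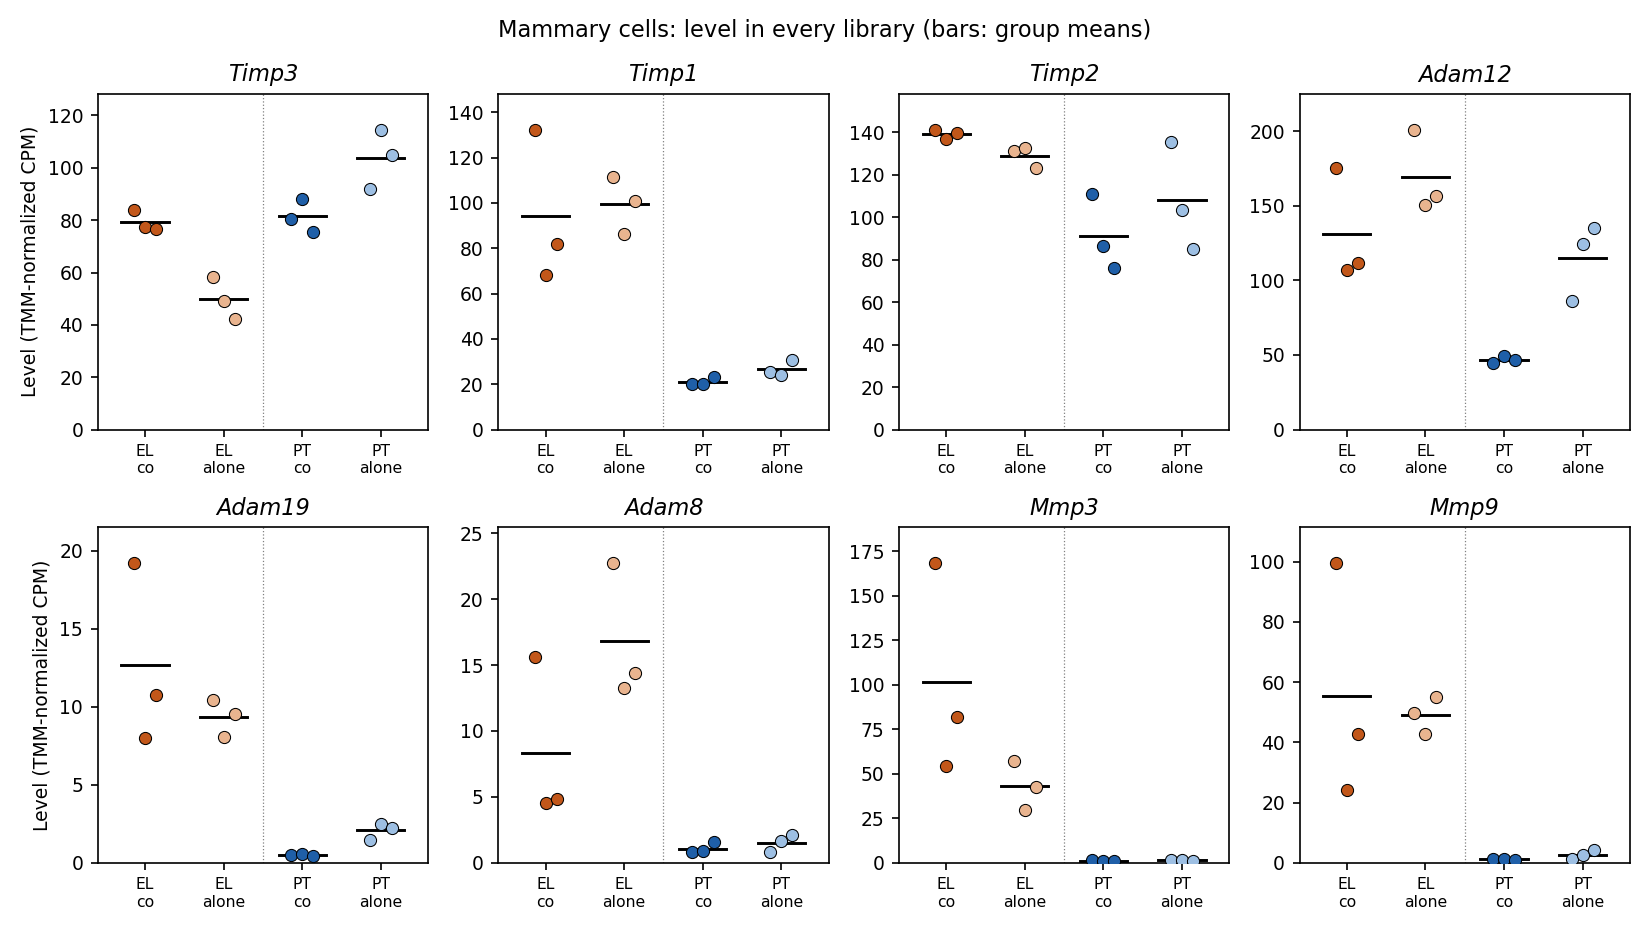
Level in CPM (linear axes, 1 point per library, bars for group means) of Timp3, Timp1, Timp2, Adam12, Adam19, Adam8, Mmp3 and Mmp9 in EL cells with macrophages, EL cells alone, PT cells with macrophages and PT cells alone. Timp3 lies higher with macrophages in EL cells and lower with macrophages in PT cells, without overlap, but neither difference passed the threshold in the main fit. Adam12 and Adam19 are lower with macrophages in PT cells, and Mmp3 and Mmp9 are near 0 in PT cells.

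The difference between the PT and the EL response to macrophages passed for 1 of 51 members, on the lower side, where 0.0393% of all 15284 genes were higher and 0.0981% lower. This was Timp3, with -1.04 ± 0.15 on the log2 scale (adjusted p = 0.0272). The call was lost in 5 of 12 settings that left out a library (replicate 2 of EL cells alone, replicates 2 and 3 of EL cells with macrophages, replicate 2 of PT cells alone and replicate 3 of PT cells with macrophages), with adjusted p up to 0.110 and a difference between -1.16 and -0.95 throughout. Adam19 (-2.50 ± 0.48, adjusted p = 0.094) and Adam12 (-0.95 ± 0.30, adjusted p = 0.223) did not pass, but with the replicate block both were lower (Adam19 -2.39 ± 0.33, adjusted p = 0.00263; Adam12 -0.90 ± 0.14, adjusted p = 0.0109), as was Timp3 (adjusted p = 6.25e-05). At an unadjusted p under 0.05, 4 members were higher and 7 lower, beside 1047 and 1169 of all 15284 genes. DESeq2 called 0 and 4 members, beside 126 and 203 of all genes. The fit with a replicate block called 1 and 8 members, beside 600 and 529 of all genes. This block paired same-numbered EL libraries as well as PT libraries.

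Between the stages the proteases differed widely. In PT cells alone 5 of 48 members tested were higher and 33 lower than in EL cells alone, where 33.8% of all 14682 genes were higher and 34.7% lower, and the median log2 difference was -1.29 for the tested members and -0.0093 for all genes. The collagenase and stromelysin genes of the chromosome 9 cluster were much lower in PT cells: Mmp13 averaged 1.44 ± 0.0619 CPM in PT cells and 35.5 ± 5.98 CPM in EL cells, Mmp3 1.35 ± 0.43 CPM in PT cells and 43 ± 13.9 CPM in EL cells, and Mmp10 0.216 ± 0.1 CPM in PT cells and 5.66 ± 0.308 CPM in EL cells (SD, n = 3 each). Mmp9 averaged 2.67 ± 1.35 CPM in PT cells and 49.1 ± 6.16 CPM in EL cells, Mmp14 93.1 ± 14.2 CPM in PT cells and 223 ± 17.5 CPM in EL cells, and Timp1 26.7 ± 3.64 CPM in PT cells and 99.5 ± 12.7 CPM in EL cells. Adam8, Adam19, Adamts2, Adamts4, Adamts7 and Mmp2 were lower too, and Adam33, with no count in PT cells, was at least 33.9-fold lower. Adam33 and Adam22, with 0 or 1 count per library of PT cells alone, passed the filter through EL cells alone. So did Mmp10 and Adam23, with 5 to 13 counts, and Mmp1b, Mmp7, Mmp23, Adam4, Adam28, Adamts6 and Adamts16, with 0 to 8. The calls of all these genes, and the count and median they enter, carry no weight of their own. Fibroblast markers were also lower in PT cells alone, at 191 to 336 CPM against 623 to 1209 CPM in EL cells alone, and their part in these differences was not tested.

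The 5 members higher in PT cells were Timp3 and the genes Mmp15, Mmp16, Mmp24 and Adamts3. Mmp24 had 4, 3 and 2 counts in EL cells alone, against 15, 14 and 48 in PT cells alone. It passed the filter on low counts through PT cells alone, so its call carries no weight of its own. Timp3 averaged 104 ± 11.3 CPM in PT cells and 49.9 ± 7.91 CPM in EL cells (log2 difference 1.08 ± 0.13, adjusted p = 0.000256), and passed in all 11 alternative settings. Mmp15, Mmp16 and Mmp24 encode membrane-type proteases: Mmp15 averaged 43.3 ± 7 CPM in PT cells and 30.1 ± 2.43 CPM in EL cells, Mmp16 1.86 ± 0.851 CPM in PT cells and 1.01 ± 0.058 CPM in EL cells, and Mmp24 0.639 ± 0.481 CPM in PT cells and 0.0477 ± 0.0169 CPM in EL cells. Adam12 averaged 115 ± 25.7 CPM in PT cells and 169 ± 27.4 CPM in EL cells (-0.54 ± 0.19, adjusted p = 0.0454), a call that passed in 4 of 11 alternatives, and Timp2 did not pass.

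Across the 8 group means, with log2 of CPM + 1 as the level, the members most like Timp3 were Adamts3 (Pearson r = 0.990), Adamts8 (0.982), Adamts12 (0.979), Adamts15 (0.978) and Mmp15 (0.977). Mmp9 was followed most closely by Mmp3 (0.974), Adamts16 (0.969), Adam19 (0.969), Mmp10 (0.968) and Mmp1b (0.961), all highest in EL cells. For Adam12 they were Adamts4 (0.992), Adamts7 (0.987), Adamts14 (0.983), Adamts15 (0.979) and Adamts12 (0.977). These are descriptions over 8 groups that share the contrast of macrophages and mammary cells.

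Genes around the metalloproteases were described from lists of activators and regulators, of related proteases outside the naming rule, of surface proteins known to be shed, and of matrix substrates. Of the 21 activators and regulators, 2 were higher and 4 lower among 13 tested in macrophages with PT cells, and 4 higher and 1 lower among 18 in macrophages with EL cells. Over all genes 15.8% were higher and 14.8% lower with PT cells, and 9.11% higher and 9.19% lower with EL cells. The list's median log2 change was -0.08 and 0.19, beside 0.00072 and 0.0019 for all genes. Furin, the convertase that removes the propeptide of Mmp14 and the Adam proteases, rose with both partners, to 188 ± 18.4 CPM with PT cells against 133 ± 3.76 CPM alone (log2 change 0.57 ± 0.10), and to 468 ± 39.5 CPM with EL cells against 207 ± 13.7 CPM alone (1.17 ± 0.08). Plau, which encodes urokinase, fell with both, to 2.35 ± 0.501 CPM with PT cells against 9.69 ± 1.26 CPM alone and to 18.2 ± 0.991 CPM with EL cells against 26.8 ± 1.7 CPM alone. Rhbdf2, the iRhom protein that carries Adam17 to the cell surface, fell with PT cells, to 18.7 ± 3.76 CPM against 47.3 ± 2.01 CPM alone (-1.28 ± 0.15, adjusted p = 2.56e-05). Its change with PT cells differed from that with EL cells by -1.24 ± 0.18 (adjusted p = 0.000578). Bsg, an inducer of matrix metalloproteases, rose with PT cells (1.06 ± 0.16), whose own level of it was 8.09 times higher, and Lrp1, a receptor that takes up protease and inhibitor complexes, rose with EL cells (0.76 ± 0.13). In the mammary cells edgeR called 1 of 19 higher in PT cells, the convertase Pcsk6 (0.55 ± 0.10, adjusted p = 0.0393), where 0.659% of all genes were higher. Of the 19 tested in EL cells edgeR called 0, with 2 higher and 1 lower at an unadjusted p under 0.05, and DESeq2 called 2 higher.

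Of the 24 shed surface proteins, 4 were higher and 4 lower among 16 tested in macrophages with PT cells and 9 higher and 3 lower among 20 in macrophages with EL cells. Over all genes 15.8% were higher and 14.8% lower with PT cells, and 9.11% higher and 9.19% lower with EL cells. The list's median log2 change was 0.19 with PT cells and 0.23 with EL cells. Tnf, the substrate of Adam17, fell with PT cells to 0.667 ± 0.0973 CPM against 4.41 ± 0.625 CPM alone (-2.63 ± 0.41, adjusted p = 0.000286). It passed the filter on low counts only through the libraries of macrophages cultured alone. Its call, and the count it enters, carry no weight of their own. Csf1r, the macrophage growth factor receptor, fell with PT cells to 15.5 ± 3.51 CPM against 46.4 ± 3 CPM alone, and with EL cells to 73.5 ± 3.12 CPM against 140 ± 1.72 CPM alone. Il6ra rose with both, to 28.7 ± 4.69 CPM with PT cells against 16.5 ± 2.4 CPM alone and to 34.6 ± 0.259 CPM with EL cells against 23 ± 1.74 CPM alone. Cdh1, E-cadherin, rose with EL cells to 79.3 ± 7.38 CPM against 31.1 ± 1.78 CPM alone, while the partner cells held 5.02 times the level of these macrophages. In PT cells the growth factor gene Areg was lower with macrophages, at 1.14 ± 0.0711 CPM against 2.33 ± 0.321 CPM alone (-1.02 ± 0.20, adjusted p = 0.0497). Of the 23 tested in EL cells edgeR called 0, with 5 higher and 3 lower at an unadjusted p under 0.05, and DESeq2 called 2 higher and 1 lower.

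Of the 14 matrix substrates, 1 was higher among 8 tested in macrophages with PT cells and 3 were higher among 11 in macrophages with EL cells. Over all genes 15.8% were higher and 14.8% lower with PT cells, and 9.11% higher and 9.19% lower with EL cells. The median log2 change was 0.47 with PT cells and 0.69 with EL cells, beside 0.00072 and 0.0019 for all genes. With either partner 0 were lower by edgeR, at an unadjusted p under 0.05 or by DESeq2. Fn1, fibronectin, rose to 223 ± 67.1 CPM with PT cells against 32.2 ± 2.23 CPM alone (2.86 ± 0.25) and to 868 ± 217 CPM with EL cells against 56.6 ± 1.89 CPM alone (3.93 ± 0.22). Vcan, versican, a substrate of Adamts1, Adamts4 and Adamts5, rose with EL cells to 47.3 ± 12.3 CPM against 5.26 ± 0.17 CPM alone (3.17 ± 0.22, adjusted p = 0.000856), and its change differed between the partners by -2.66 ± 0.34 (adjusted p = 0.000241). In PT cells Vcan was lower with macrophages, at 19 ± 2.04 CPM against 31.7 ± 4.1 CPM alone (-0.73 ± 0.11, adjusted p = 0.0237). Of the 12 substrates tested in EL cells edgeR called 0, with 1 lower at an unadjusted p under 0.05, and DESeq2 called 0.

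The related genes outside the naming rule numbered 16, of which 3 were higher and 1 lower among 6 tested in macrophages with PT cells, and 5 higher and 1 lower among 10 with EL cells. Over all genes 15.8% were higher and 14.8% lower with PT cells, and 9.11% higher and 9.19% lower with EL cells. The list's median log2 change was 1.03 with PT cells and 0.62 with EL cells, beside 0.00072 and 0.0019 for all genes. Adamtsl4, an Adamts-like protein without protease domain, rose with both partners, to 23.6 ± 6.81 CPM with PT cells against 6.3 ± 1.48 CPM alone (1.97 ± 0.26) and to 24.3 ± 1.71 CPM with EL cells against 8.5 ± 0.0777 CPM alone (1.51 ± 0.09). Adamtsl5 fell with both, to 5.34 ± 0.526 CPM with PT cells against 12.9 ± 1.54 CPM alone (-1.21 ± 0.20) and to 7.45 ± 0.436 CPM with EL cells against 10.3 ± 0.912 CPM alone (-0.47 ± 0.11). Papln and Bmp1 were called higher with both partners but were at least 76.8 times more abundant in the partner cells, and the part of partner RNA was not tested. In PT cells edgeR called 0 of 10, with 2 higher and 1 lower at an unadjusted p under 0.05, and DESeq2 called 1 higher. In EL cells edgeR called 0 of 11, with 1 lower at an unadjusted p under 0.05, and DESeq2 called 0.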

How the data were processed

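Per the labels' protocols, RNA was taken with an RNeasy kit, messenger RNA was enriched with oligo(dT) beads and libraries were made with the NEBNext Ultra kit; per the submitters' processing notes, reads were converted with bcl2fastq 2.17 and the genome build was mm10. The sources used here name no aligner, counting tool, annotation or use of strand. The authors deposited raw counts per gene symbol in 2 tables, with 22 columns that all matched a sample; 27 symbols of the tables look like dates and were kept as rows, and none of them is a member. No 2 libraries were identical. Of the 65 members 19 share exon positions with another gene (GENCODE vM21).

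Computed here with R 4.3.3 and edgeR 4.0.16: each comparison was fitted on the groups compared alone (filterByExpr, TMM, robust quasi-likelihood F test, Benjamini-Hochberg adjustment over all genes tested, threshold 0.05); the SE is the absolute log2 change divided by the square root of F. Both differences between partners or stages are interaction terms. Levels and their SD are CPM with 1 TMM scaling over all 22 libraries. The procedure was tested on simulated data. Alternatives were RLE scaling, no filter on low counts, DESeq2 1.42.0, the replicate number as a block, removal of the 13 mitochondrially encoded genes and Grip2, a joint fit of the 4 groups of each experiment, each library left out in turn, and leaving out members at least 5 times higher in the partner cells.

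Deviations from the group means of same-numbered PT libraries from co-culture and alone correlated at 0.461, 0.35 and 0.468, while pairs with unlike numbers gave -0.36 to -0.124. Deviations cancel out within each group, so the negative values of unlike pairs follow in part from the positive ones and are no separate evidence. From these data and not from a label, a fit with the replicate block is given for PT cells beside the main fit, which had none. The pairing was not taken for the other cells outside the alternative settings. The blocked fit of the difference between stages pairs EL libraries as well. Counting intervals cover counting error only.

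Values per library are given for Timp1 to Timp4, Mmp8, Mmp9, Adam8 and Adam12 and for members called in a co-culture comparison or an interaction; of each pathway list, up to 3 called genes per direction may be named, and of the likeness to Timp3, Mmp9 and Adam12 the 5 highest r. Other members are named with ranges or as examples. The members and lists were chosen with earlier results of these data known.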

Additional observations from a re-analysis of the deposited data

Results flagged for a closer look

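The response of macrophages differed between the experiments, by the interaction test, in 6 members, given as the log2 change with PT cells minus that with EL cells: Adam8 (-3.84), Mmp9 (-5.29), Mmp12 (-2.23), Mmp19 (-1.11), Adamts10 (-0.98) and Mmp8 (2.11). For Mmp9 the value rests on 20 counts with PT cells and 23 alone, and on 255 counts with EL cells and 5 alone. Mmp9 entered the test only through macrophages with EL cells, so its difference is not read as one of response. Adam8 was the member among these that was called in both experiments in opposite directions. In mammary cells the response differed between the stages in 1 member, Timp3 (-1.04), whose levels were higher in all 3 libraries with macrophages at the EL stage and lower in all 3 at the PT stage. Partner, stage and experiment cannot be told apart.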

How the results depend on the processing

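Over 78 named results and 955 alternative values, 858 kept their direction and side of the threshold, 54 lost and 23 gained a call, and 20 turned direction. In EL cells the 0 higher and 0 lower members became 1 and 1 with no filter, 5 and 2 with DESeq2 and 4 and 3 with the replicate block, and 0 to 5 higher and 0 to 4 lower with 1 library left out; Mmp9 became -0.016 with the replicate block and -0.53 to 0.56 with a library left out, and Timp1 -0.37 to 0.13. In PT cells DESeq2 gave 5 lower, the replicate block 2 higher and 10 lower, and leaving out a library 0 to 2 lower. In macrophages with EL cells the fit of all 4 groups left 2 lower and turned Adam12 to 0.051; leaving out a library moved Adam12 between -0.21 and 0.21 and Timp3 between -0.085 and 1.33. In macrophages with PT cells the 4-group fit gave 6 higher, and leaving out a library moved Adam12 between -0.73 and 0.14. For the difference between stages the replicate block gave 1 higher and 8 lower and DESeq2 4 lower; with a library left out there were 0 to 2 lower, and Timp1 moved between -0.47 and 0.033. For the difference between partners no filter gave 9 lower, and leaving out a library 1 to 2 higher and 4 to 8 lower; Adam12 moved between -0.75 and 0.14, and Timp3 became 0.0064 with RLE scaling, 0.016 with DESeq2, 0.000301 without mitochondrial genes and Grip2, and -0.84 to 0.55 with a library left out. The cause of these shifts was not tested. In EL cells same-numbered libraries correlated at 0.287, 0.227 and 0.0612, and in macrophages at -0.0902 to 0.00418. The replicate block is therefore given for them only here and, for EL cells, in the difference between stages. Macrophages of the primary tumor experiment had 4.65 to 6.03 M counts (M, 1000000) outside mitochondrial genes and Grip2. In their co-culture comparison 19 members could be tested, against 39 in the early lesion experiment. With 2 libraries per macrophage group in the early lesion experiment, a lone library was assumed to vary like the other group.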
